A study of Mus musculus with 24 samples.

Results

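The transcriptional response to alpha-galactosylceramide (aGC) was examined in 6 of the 24 libraries of invariant natural killer T (iNKT) cells sorted from mesenteric nodes of the mouse strain C57BL/6J. The 6 libraries were 3 from males gavaged with aGC and 3 from females gavaged with PBS. All came from mice born to dams that had received feces of CD1d-knockout donors (KO FT, where FT is fecal transplant), so that the host mice themselves carried CD1d. They were selected on a measured value, as the KO FT groups whose mean level of Cd8a, which encodes a chain of the CD8 co-receptor, lay below 20 CPM (counts scaled to library size, as edgeR's CPM). With this choice both groups have few Cd8a transcripts, but treatment and sex differ together. A part of sex in any autosomal difference cannot be told apart from the part of aGC, and genes of chromosomes X and Y were left out.

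iNKT cells are T cells with a semi-invariant receptor, built in the mouse from Trav11 and Traj18, that reads lipids held by the MHC-like molecule CD1d. aGC is a glycolipid that binds CD1d and engages this receptor directly, and iNKT cells answer within hours with interleukin 4, interferon gamma and other cytokines. The cells are usually divided into a T-bet-high type (iNKT1), a PLZF-high, interleukin 4-rich type (iNKT2) and an interleukin 17-making type (iNKT17). In lymph nodes an engaged T cell typically raises early response factors and activation receptors, lowers its egress receptor and starts to grow and copy its DNA.

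The mice were gavaged with 2 µg aGC in 200 µL PBS, or with the same volume of PBS, and the cells were sorted 24 h later. The whole design crossed FT donor (wild-type or CD1d-knockout), treatment and sex in 8 groups of 3 libraries. The labels do not say how the cells were gated, how many animals gave a library, or whether the 3 in a group were separate animals. The p-values therefore rest on library-to-library spread that may be technical, and dam, litter and cage cannot be told apart from the group. The same 24 h time point and node were used throughout, so no time course was available.

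Total estimated counts were 13157498 to 22757422 in the 6 libraries, within 9764931 to 37016768 in all 24. A count of 0 in 1 of the 6 libraries allows a level of up to 0.132 to 0.221 CPM (3 counts, counting error only). Xist stood at 38.1 to 48.3 CPM in the PBS female libraries and at 0.0932 to 0.268 in the aGC male ones, and Y-linked Ddx3y at 0 to 0.133 and 52.0 to 70.7 CPM, as their labels say. Within groups, each of the 24 library pairs stood further apart than counting error allows (chi-square over its degrees of freedom, 4.11 to 16.4). The 3 pairs of aGC male KO FT libraries had the highest values, 12.2 to 16.4, and the PBS female KO FT pairs had 4.67 to 10.1.

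Cd8a (ENSMUSG00000053977.13, chromosome 6, 71373427 to 71379173, GRCm38/mm10) chose the groups and is given as a description. It stood at 5.15, 5.64 and 4.79 CPM in the PBS female libraries and at 8.10, 7.51 and 7.17 in the aGC male ones. The nearest KO FT group outside the limit was PBS male, with a mean of 136 CPM, and the other was aGC female with 189 CPM. The WT FT groups divided in the same places, with means of 6.30 in PBS females and 6.21 in aGC males against 287 in PBS males and 245 in aGC females. Cd8b1, which encodes the partner chain, stood at 11.4, 11.0 and 11.1 CPM in PBS female and at 6.36, 6.77 and 6.89 in aGC male libraries.

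**Figure D1:**
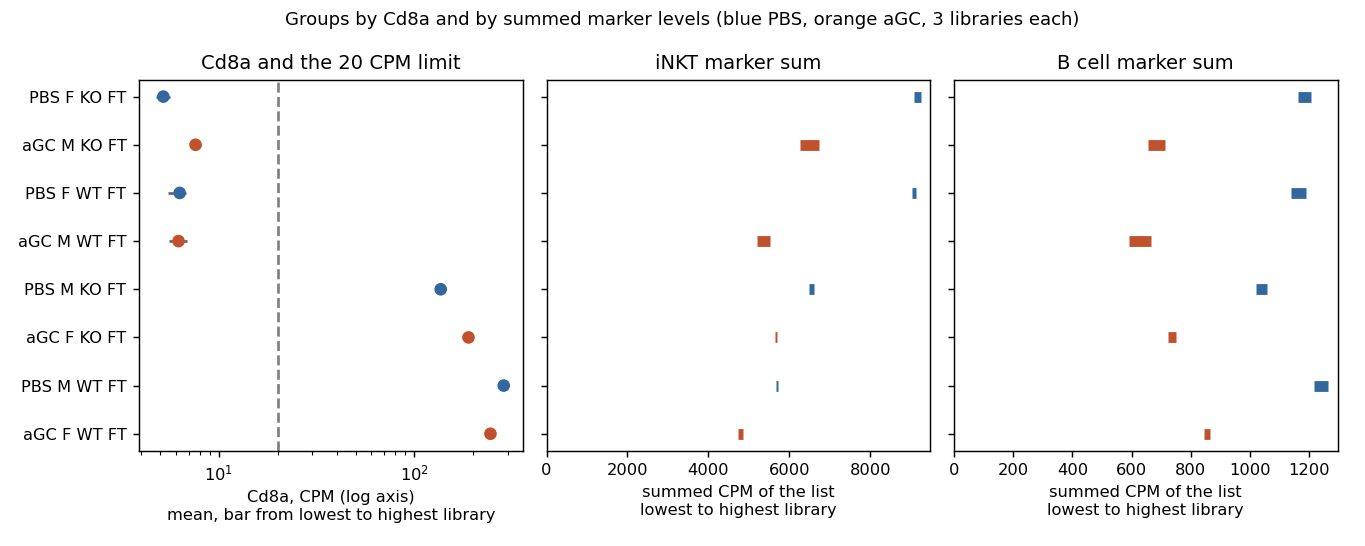
Cd8a level (left, log axis, with the limit of 20 CPM dashed) and summed CPM of the iNKT and B cell marker lists (middle and right) in the 8 groups of 3 libraries; bars run from the lowest to the highest library, blue for PBS and orange for aGC. The 2 Cd8-low KO FT groups have Cd8a means of 5.20 and 7.59 CPM, and both marker sums are lower in the aGC group than in the PBS group.

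The label of the cells was checked against marker lists. Of the 12 iNKT markers only Trav11d was at 0 in all 6 libraries, and the list summed to 9091 to 9252 CPM in PBS female and 6272 to 6723 in aGC male libraries. A large part of the sum and of its fall was Cxcr6 (log2 change -0.75), whose levels are given below. Of the 11 tested members 7 were called lower and 2 higher (63.6% and 18.2%), against 24.4% and 25.6% of all tested genes. The 2 were Zbtb16 and Cd160, with log2 changes of 0.25 and 0.15. Trav11 (ENSMUSG00000096615.1, chromosome 14, 53519303 to 53519859), the variable segment of the invariant receptor, read 834, 829 and 880.1 CPM against 445, 425 and 505, a log2 change of -0.89 ± 0.05 (SE; adjusted p = 1.52e-12). Traj18 (ENSMUSG00000076911.1, chromosome 14, 54200777 to 54200842), its joining segment, read 108, 117 and 117 against 62.4, 65.7 and 70.0 CPM, a log2 change of -0.78 ± 0.06 (adjusted p = 5.00e-11). Neither pair of groups overlapped, and both segments were lower after aGC. In such bulk samples fewer cells of a type and less RNA per cell cannot be told apart.

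Markers of other cells moved as well. The 9 CD8 T cell markers summed to 249.7 to 268 CPM in PBS female and 258 to 268 in aGC male libraries, against 687 to 723 and 818 to 861 in the PBS male and aGC female groups above the Cd8a limit. The sum holds Cd8a, which chose the groups, and Cd8b1. Without them the other 7 markers summed to 233 to 252 and 243 to 254 CPM in the Cd8-low groups and to 294 to 327 and 324 to 338 in the others. The near-equal Cd8-low sums hold members that moved in opposite directions. Crtam and Eomes were higher in the aGC libraries (log2 changes 4.79 and 4.37), and Gzmk and Dapl1 were lower (Dapl1 by a log2 change of -1.35). Crtam, Eomes and Gzmk are also named below among the genes of the response. The 20 B cell markers summed to 1162 to 1204 against 656 to 711 CPM, and most of that was Ighm, the mu heavy chain gene, at 1051, 1005 and 1044 against 560.0, 502 and 559 CPM. Myeloid markers summed to 216 to 246 against 151 to 177 CPM, gamma-delta T cell markers to 163 to 181 against 109 to 132, NK and ILC markers to 36.2 to 40.2 against 59.1 to 66.2, and CD4 and regulatory T cell markers to 640.5 to 705 against 753 to 836. The NK and ILC list holds Ncr1 and the CD4 and regulatory list Tnfrsf4, with log2 changes of 5.29 and 3.29, while the medians of these lists were -0.03 and 0.29. S100a9 of the myeloid list, Trdv4 of the gamma-delta list and Cdh5, Col3a1 and Krt18 of the stromal and epithelial list were at 0 in all 6 libraries. The part of these cells in the results below was not tested.

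Of 15469 genes tested, 7736 (50.0%) differed between aGC male and PBS female libraries at an adjusted p under 0.05. 3957 (25.6%) were higher after aGC and 3779 (24.4%) lower, and the median log2 change of all tested genes was 0.003. These shares are the background of the list counts for this response. The fit with 1 profile per group and the differences of responses have their own shares, given where each is described. As a second look, the libraries of each Cd8-low group, WT FT included, were summed to 1 profile and fitted with terms for treatment and FT, which left 1 residual degree of freedom. The treatment term of that fit averages the aGC change over KO FT and WT FT, so it is another quantity than the KO FT response. In it 1459 genes (9.43%) passed, 970 of them higher (6.27%) and 489 lower (3.16%). The higher genes were 66.5% of the calls in that fit and 51.2% in the first. Its error does not come from the spread of libraries within a group, and its counts are given beside the lists as those with 1 profile per group.

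Among the 12 steepest rises with at least 5 CPM in 1 of the groups were genes of secreted and surface proteins. Lif (ENSMUSG00000034394.14, chromosome 11, 4257557 to 4272514), a cytokine of the interleukin 6 family, went from 0.158, 0.133 and 0.0880 to 21.2, 15.8 and 20.8 CPM. Its log2 change was 7.21 ± 0.34 (adjusted p = 2.88e-14), although only 7 counts were seen in the PBS group. Tnfsf4 (ENSMUSG00000026700.4, chromosome 1, 161395409 to 161418410), the OX40 ligand gene, went from 0.526, 0.265 and 0.396 to 21.1, 19.8 and 18.6 CPM, a log2 change of 5.59 ± 0.22 (adjusted p = 1.29e-15). None of the aGC libraries came near a PBS library for either gene.

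Cd83 (ENSMUSG00000015396.4, chromosome 13, 43784775 to 43803132), a surface marker of activated lymphocytes and dendritic cells, also rose. It read 12.1, 11.1 and 11.7 CPM after PBS against 338, 337 and 309 after aGC, a 28.1-fold rise (log2 change 4.81 ± 0.07, adjusted p = 2.28e-23). Crtam (ENSMUSG00000032021.14, chromosome 9, 40969691 to 41004628), an adhesion receptor of activated cytotoxic T cells, read 1.74, 0.863 and 2.02 against 47.3, 40.2 and 45.7 CPM, a log2 change of 4.79 ± 0.15 (adjusted p = 1.30e-17). Bcat1 (ENSMUSG00000030268.17, chromosome 6, 144993835 to 145076184), the cytosolic branched-chain aminotransferase, read 0.999, 1.39 and 1.01 against 67.8, 58.9 and 62.3 CPM, a log2 change of 5.82 ± 0.26 (adjusted p = 7.11e-15). In all 3 genes the libraries of a group lay close together and the groups far apart.

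Others among the 12 largest rises were low in both groups or nearly absent after PBS. Map1b, a microtubule-associated protein gene, had 1 count in the PBS group and 289 in the aGC group, a ratio of 329 with a counting interval of 58.5 to 13019.6 (95%, exact). Ak4, an adenylate kinase of mitochondria, had 1 and 267 counts, a ratio of 303 (54.0 to 12032). Fam83g, the vitamin A receptor gene Stra6 and the semaphorin gene Sema4c rose by log2 changes of 5.55 ± 0.34, 5.32 ± 0.46 and 4.67 ± 0.39 to means of 11.8, 8.06 and 6.94 CPM.

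**Figure D2:**
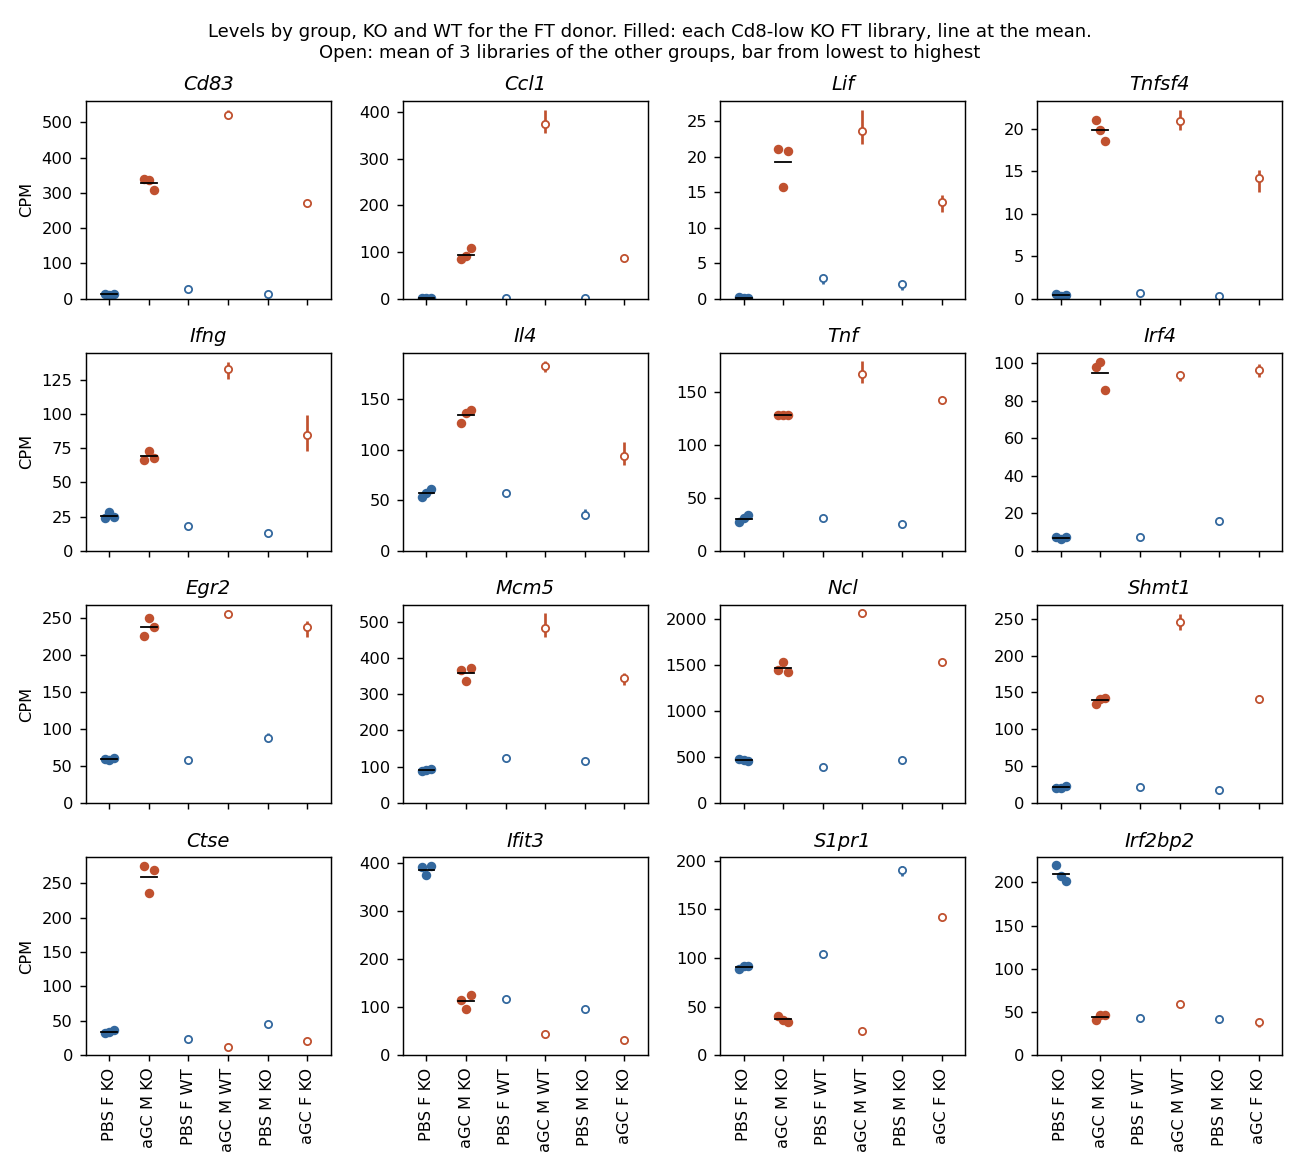
Levels in CPM of 16 genes; filled points are the 6 Cd8-low KO FT libraries (PBS female blue, aGC male orange, line at the mean), open points are the means of the Cd8-low WT FT and the Cd8-high KO FT groups with bars from the lowest to the highest library. For each of the 16 genes the filled aGC points do not overlap the filled PBS points; Ctse stands high only in the aGC male KO FT group of those plotted, and Irf2bp2 only in the PBS female KO FT group.

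Among effector cytokines 13 of 15 tested genes rose and 1 fell, with a median log2 change of 1.62. With 1 profile per group 11 were higher and 1 lower. Another 9 of the 24 list members did not pass the count filter, and 8 rose when a mean of at least 5 CPM was asked for. Ifng (ENSMUSG00000055170.4, chromosome 10, 118441046 to 118445892), the type 1 cytokine interferon gamma, read 23.9, 28.3 and 24.8 CPM after PBS against 66.5, 72.9 and 67.8 after aGC, a 2.69-fold rise (log2 change 1.43 ± 0.09, adjusted p = 2.89e-12). Il4 (ENSMUSG00000000869.12, chromosome 11, 53602982 to 53618669), the type 2 cytokine, read 53.5, 56.8 and 61.0 against 127, 136 and 139 CPM, a 2.34-fold rise (log2 change 1.23 ± 0.08, adjusted p = 2.43e-11). For both genes each aGC library lay above each PBS library.

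Tnf, tumor necrosis factor, read 27.3, 30.8 and 33.5 CPM after PBS against 129, 129 and 129 after aGC, a log2 change of 2.07 ± 0.07 (adjusted p = 3.48e-17). Its aGC libraries were nearly equal to each other. Lymphotoxin alpha (Lta), RANK ligand (Tnfsf11), Tgfb1 and the granulocyte-macrophage factor Csf2 rose by log2 changes of 1.55 ± 0.06, 1.44 ± 0.06, 1.01 ± 0.06 and 1.62 ± 0.10. Ltb, the membrane partner of lymphotoxin alpha, was the one member that fell, from 2254, 2282 and 2312 to 1167, 1429.6 and 1587 CPM (log2 change -0.71 ± 0.08, adjusted p = 1.01e-07).

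The remaining cytokine calls were of low transcripts. Genes this low after PBS pass the count filter only through groups where they are higher, so these rises are not independent of the filter. Il2, the T cell growth factor, read 0.263, 0.531 and 0.484 CPM after PBS against 3.35, 4.34 and 3.82 after aGC (log2 change 3.16 ± 0.44, adjusted p = 1.97e-06), and Il21, a helper cytokine for B cells, read 0.210, 0.0664 and 0.0880 against 2.81, 2.95 and 3.35 (log2 change 4.55 ± 0.51, adjusted p = 9.22e-08). Il13 went from a mean of 0.107 to 1.31 CPM, Il10 from 0.132 to 0.585 and Il17f from 0.113 to 0.465, the last 2 with adjusted p of 0.0276 and 0.03. Neither of these calls was stable: in the 6 fits that left out 1 of the 6 libraries, each was lost 4 times, with an adjusted p of up to 0.0963 for Il10 and 0.105 for Il17f. All 6 libraries had 0 counts of Il17a and of Il5, the defining cytokine of type 17 cells and an eosinophil factor.

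Of 10 chemokines 4 rose and 2 fell, and the median log2 change was 0.32 (3 higher and 1 lower with 1 profile per group). The falls numbered 1 without the first or second library of either group. Ccl1 (ENSMUSG00000020702.13, chromosome 11, 82176657 to 82305690), the ligand of CCR8, read 1.05, 1.06 and 0.880 CPM after PBS against 84.5, 91.2 and 108 after aGC, a 95.3-fold rise (log2 change 6.57 ± 0.17, adjusted p = 8.65e-19). Ccr8 itself, its receptor, rose from 30.1, 26.9 and 31.6 to 91.2, 92.1 and 106 CPM (log2 change 1.71 ± 0.07, adjusted p = 3.43e-15). Ligand and receptor were thus both higher in each aGC library than in any PBS library.

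Ccl4, an inflammatory chemokine gene, rose from 8.31, 6.70 and 10.3 to 62.5, 73.9 and 78.9 CPM (log2 change 3.07 ± 0.13), and its neighbor Ccl3 had 3 counts after PBS and 143 after aGC, a ratio of 54.2 (counting interval 18.2 to 266). Xcl1, which attracts cross-presenting dendritic cells, rose less, from 88.9, 95.2 and 103 to 108, 124 and 144 CPM (log2 change 0.39 ± 0.09, adjusted p = 0.000632). Ccl5, a chemokine that memory T cells keep stored as RNA, went the other way, from 96.9, 96.7 and 103 to 34.3, 44.7 and 50.4 CPM (log2 change -1.19 ± 0.12, adjusted p = 7.43e-09). The chemokines did not move as a block.

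The promoter window of Ccl1 is printed because it holds 1 of the few matches of a kappa-B-type motif (GGGAA, any base, TTCC), searched on both strands, among the windows of RefSeq (GRCm38.p6, 250 bases before to 50 bases after the start, read along the gene). The window lies at chr11:82179763-82180062, minus strand, and the capitals mark the motif, which the reverse strand matches again with a shift of 1 base. Of 27025 genes with a window 107 (0.396%) held this motif, and it was in 0 of the 14 windows found for the 15 effector cytokines.
Ccl1: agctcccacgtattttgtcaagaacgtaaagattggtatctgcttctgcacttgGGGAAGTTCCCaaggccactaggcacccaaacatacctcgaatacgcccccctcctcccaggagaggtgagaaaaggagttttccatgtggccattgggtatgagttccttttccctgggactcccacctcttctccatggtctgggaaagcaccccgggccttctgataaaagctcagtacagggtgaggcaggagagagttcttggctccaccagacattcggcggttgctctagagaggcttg

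Among the early response factors of the NR4A, EGR and NFAT families, 9 of 15 rose and none fell at this threshold (6 higher and 0 lower with 1 profile per group). Nr4a1, the orphan receptor Nur77 that reports recent receptor signals, went from 63.0, 63.6 and 70.1 to 403, 446 and 447 CPM (log2 change 2.72 ± 0.07, adjusted p = 1.22e-18), and Nr4a2 from 0.210, 0.0664 and 0.176 to 8.90, 6.48 and 5.22 (log2 change 5.38 ± 0.35). Egr2, a zinc finger factor of the iNKT lineage and of T cell tolerance, went from 59.8, 58.0 and 60.5 to 226, 250.3 and 238 CPM (log2 change 2.00 ± 0.05, adjusted p = 1.39e-18). Egr1 and Egr3 rose by 1.54 ± 0.05 and 1.94 ± 0.12 and Nfatc1 by 1.13 ± 0.05 on the log2 scale. Nfatc2 did not pass, at 34.5 and 30.6 CPM (adjusted p = 0.28).

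The interferon regulatory factors parted. Irf4 (ENSMUSG00000021356.10, chromosome 13, 30749226 to 30766976), which scales with receptor strength in T cells, went from 7.47, 6.17 and 7.48 to 98.0, 101 and 85.7 CPM, a 13.3-fold rise (log2 change 3.74 ± 0.10, adjusted p = 8.91e-19), and Irf8 from 52.1, 44.9 and 45.6 to 214, 246 and 267 (log2 change 2.35 ± 0.08, adjusted p = 1.04e-16). Irf7 and Irf9, which serve the type I interferon response, fell from means of 401 and 220.1 to 156 and 135 CPM (log2 changes -1.37 ± 0.06 and -0.71 ± 0.06). The AP-1 antagonist Bach2 rose by 1.45 ± 0.13. In the whole list of IRF and AP-1 factors 11 of 20 rose and 7 fell (5 and 3 with 1 profile per group).

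Of 15 NF-kappa-B subunits and inhibitors 11 rose and 1 fell, with a median log2 change of 0.46 (no fall with the replicate number as a block; 5 higher and 0 lower with 1 profile per group). The subunit gene Rel went from 8.57, 7.83 and 7.74 to 37.1, 37.0 and 31.0 CPM (log2 change 2.12 ± 0.10). The inhibitors Nfkbid, Tnfaip3, which encodes the ubiquitin editor A20, and Nfkbiz rose by 2.07 ± 0.05, 2.00 ± 0.07 and 1.14 ± 0.07, and Nfkb1 by 0.98 ± 0.06. Subunits and inhibitors were therefore both among the genes that rose.

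Among activation and co-stimulatory surface genes 13 of 19 rose and 4 fell, with a median log2 change of 1.43 (10 higher and 0 lower with 1 profile per group). Cd69, an early antigen that holds S1PR1 inside the cell, read 77.8, 74.6 and 70.8 CPM after PBS against 264, 261 and 239 after aGC (log2 change 1.78 ± 0.05, adjusted p = 6.56e-18). Tnfrsf9, the 4-1BB gene, read 78.7, 80.9 and 93.3 against 390.3, 389.6 and 431 (log2 change 2.26 ± 0.06), and Tnfrsf4, the OX40 gene, 5.73, 3.85 and 6.99 against 59.3, 48.4 and 57.6 (log2 change 3.29 ± 0.12). OX40 and its ligand Tnfsf4 thus rose in the same libraries. Cd200, an inhibitory ligand of myeloid cells, rose by 2.38 ± 0.08.

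Co-inhibitory and anergy genes gave 10 rises and 3 falls among 15 (5 and 1 with 1 profile per group). Pdcd1, the PD-1 receptor gene, went from 80.9, 69.3 and 86.3 to 171, 143 and 163 CPM (log2 change 1.01 ± 0.08, adjusted p = 8.72e-11). The genes of its ligands, Cd274 and Pdcd1lg2, rose by 1.43 ± 0.07 and 1.38 ± 0.11, and the HVEM receptor gene Btla by 0.76 ± 0.08. Cd101 fell from a mean of 25.0 to 13.7 CPM (log2 change -0.87 ± 0.10).

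Feedback regulators of cytokine and MAP kinase signals were split, with 7 rises and 6 falls among 15 (6 and 1 with 1 profile per group). Spry1, a Ras pathway inhibitor, rose by 1.66 ± 0.10, the phosphatase genes Dusp2 and Dusp5 by 1.04 ± 0.07 and 0.74 ± 0.05, and Cish, a STAT5 target that dampens receptor signals, by 0.98 ± 0.07. Dusp4 went from 0.736, 0.199 and 0.308 to 7.56, 5.45 and 6.71 CPM (log2 change 3.94 ± 0.35). Of 7 STAT genes 4 rose and 3 fell (1 and 0 with 1 profile per group). Stat5a, which serves interleukin 2, went from 54.2, 52.9 and 46.5 to 232, 259.8 and 262 CPM (log2 change 2.30 ± 0.08, adjusted p = 1.01e-16).

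Cytokine receptors were divided as well (7 of 22 rose, 8 fell; 0 and 6 with 1 profile per group). Il7r (ENSMUSG00000003882.5, chromosome 15, 9505788 to 9530176), the receptor of the survival cytokine interleukin 7, went from 449, 452 and 403 to 247, 266 and 206 CPM (log2 change -0.86 ± 0.08, adjusted p = 7.72e-09). Ifngr1, a chain of the interferon gamma receptor, fell from 455, 441 and 399 to 155, 173 and 146 CPM (log2 change -1.45 ± 0.06), and Il18r1, a receptor chain of innate-like T cells, from 40.8, 41.7 and 38.6 to 12.8, 13.0 and 10.9 (log2 change -1.73 ± 0.12). Il21r rose by 0.67 ± 0.06.

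Of 19 tested lineage and effector factors 5 rose and 8 fell (2 and 3 with 1 profile per group). Zbtb16, which encodes PLZF, read 57.4, 58.9 and 59.5 CPM after PBS against 72.4, 60.8 and 76.0 after aGC, a log2 change of 0.25 ± 0.08 (adjusted p = 0.0154). Tbx21, which encodes T-bet, read 562, 563 and 548 against 420.3, 430.2 and 417 (log2 change -0.40 ± 0.05, adjusted p = 2.87e-07). Gata3, the type 2 factor, read 194, 181 and 191 against 164, 229 and 179 (log2 change 0.01 ± 0.10, adjusted p = 0.922). The Gata3 groups overlapped, and those of the other 2 genes did not. The small Zbtb16 change was not called without the first or the third aGC library (adjusted p = 0.0525 and 0.0996) or with all genes that had a count (adjusted p = 0.153).

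Bcl6, the follicular helper factor, also overlapped, at 5.05, 4.45 and 3.83 against 7.70, 4.34 and 5.54 CPM (adjusted p = 0.126), and was called without the second aGC library (log2 change 0.57, adjusted p = 0.0395). Eomes, a T-box factor of memory and cytotoxic cells, went from 1.16, 1.06 and 1.45 to 26.3, 26.2 and 25.0 CPM (log2 change 4.37 ± 0.14, adjusted p = 4.48e-17). Rora, Zfp683, the Hobit gene, and Id2 fell (log2 changes -0.81 ± 0.05, -0.89 ± 0.06 and -0.63 ± 0.06). Runx1 and Prdm1, the Blimp-1 gene, did not pass, with adjusted p of 0.0737 and 0.0947; Runx1 was called lower without the third aGC library, and Prdm1 without the first library of either group.

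The subset markers moved in different directions. Of 20 iNKT17 markers 17 fell and none rose, with a median log2 change of -0.87 (0 higher and 10 lower with 1 profile per group), for example Emb from 387, 371 and 355 to 209, 205 and 187 CPM and the gut integrin gene Itgb7 with a log2 change of -0.88 ± 0.05. The gamma-delta T cell marker sum, given above, was lower as well, and its part in these falls was not tested. Of 22 iNKT1 markers 6 rose and 13 fell (median -0.45); among the falls were the NK receptor genes Klrk1 and Klrd1 (-1.16 ± 0.07 and -1.34 ± 0.11), and among the rises Ccl4 and Xcl1. Of 14 iNKT2 markers 7 rose and 3 fell (median 0.16); the rises included Il4 and Ccr4 (0.95 ± 0.08), and the falls Plac8 (-0.83 ± 0.07) and Il17rb (-0.44 ± 0.05), the interleukin 25 receptor gene. With 1 profile per group 1 iNKT1 marker was higher and 4 lower, and 2 iNKT2 markers were higher and 1 lower.

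Follicular helper-like genes gave 7 rises and no fall among 11 (median 1.01; 6 higher and 0 lower with 1 profile per group). Cxcr5, the follicle homing receptor gene, went from 4.26, 4.91 and 4.05 to 21.4, 24.4 and 24.8 CPM (log2 change 2.43 ± 0.15, adjusted p = 4.80e-12). Angptl2 rose by 3.95 ± 0.32 and Tnfsf8, the CD30 ligand gene, by 2.12 ± 0.19. Bcl6, as given above, was not called with them.

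Receptor and egress genes more often fell than rose. Of 27 genes of the TCR complex and nearby signalling 16 fell and 5 rose, with a median of -0.28 (0 higher and 3 lower with 1 profile per group). Cd3g, a signalling chain of the complex, went from 1417, 1467 and 1599.8 to 848, 874 and 984 CPM (log2 change -0.73 ± 0.05), the adhesion receptor gene Cd2 from 532, 540.4 and 582 to 253, 254 and 268 (log2 change -1.09 ± 0.04), and the kinase gene Lck fell (log2 change -0.50 ± 0.04). The adaptor gene Skap1 and the Tec family kinase gene Txk fell (log2 changes -0.86 ± 0.04 and -0.99 ± 0.05).

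Of 18 egress and naive genes 11 fell and 4 rose (6 and 1 with 1 profile per group). S1pr1 (ENSMUSG00000045092.8, chromosome 3, 115710433 to 115715072), the receptor that guides T cells out of the node, went from 88.4, 92.2 and 91.7 to 40.0, 36.6 and 34.2 CPM, a 2.46-fold fall (log2 change -1.30 ± 0.06, adjusted p = 1.67e-14). Klf2, which drives S1pr1, went from 37.3, 34.6 and 38.2 to 19.7, 21.8 and 22.2 CPM (log2 change -0.79 ± 0.06), and Ramp1 and Igfbp4 fell (log2 changes -1.03 ± 0.06 and -0.96 ± 0.06). Homing receptor genes were even, with 7 rises and 7 falls among 20 (1 and 3 with 1 profile per group): Gpr183, an oxysterol receptor gene, rose by 0.82 ± 0.05, and Cxcr6 fell from 3951 to 2349 CPM (-0.75 ± 0.06).

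Cytotoxic effector genes more often fell than rose after aGC (9 of 17 fell, 2 rose; 2 and 1 with 1 profile per group). Prf1, perforin, went from 60.9, 62.7 and 61.2 to 26.8, 29.7 and 27.8 CPM (log2 change -1.13 ± 0.07, adjusted p = 2.89e-12), and Ctsw and Nkg7 fell (log2 changes -0.49 ± 0.05 and -0.39 ± 0.06). Gzmk, granzyme K, had 71 counts after PBS and 0 after aGC, at least 20.8-fold lower (against 3 counts over the group). The granule proteoglycan gene Srgn rose by 1.01 ± 0.07.

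**Figure D3:**
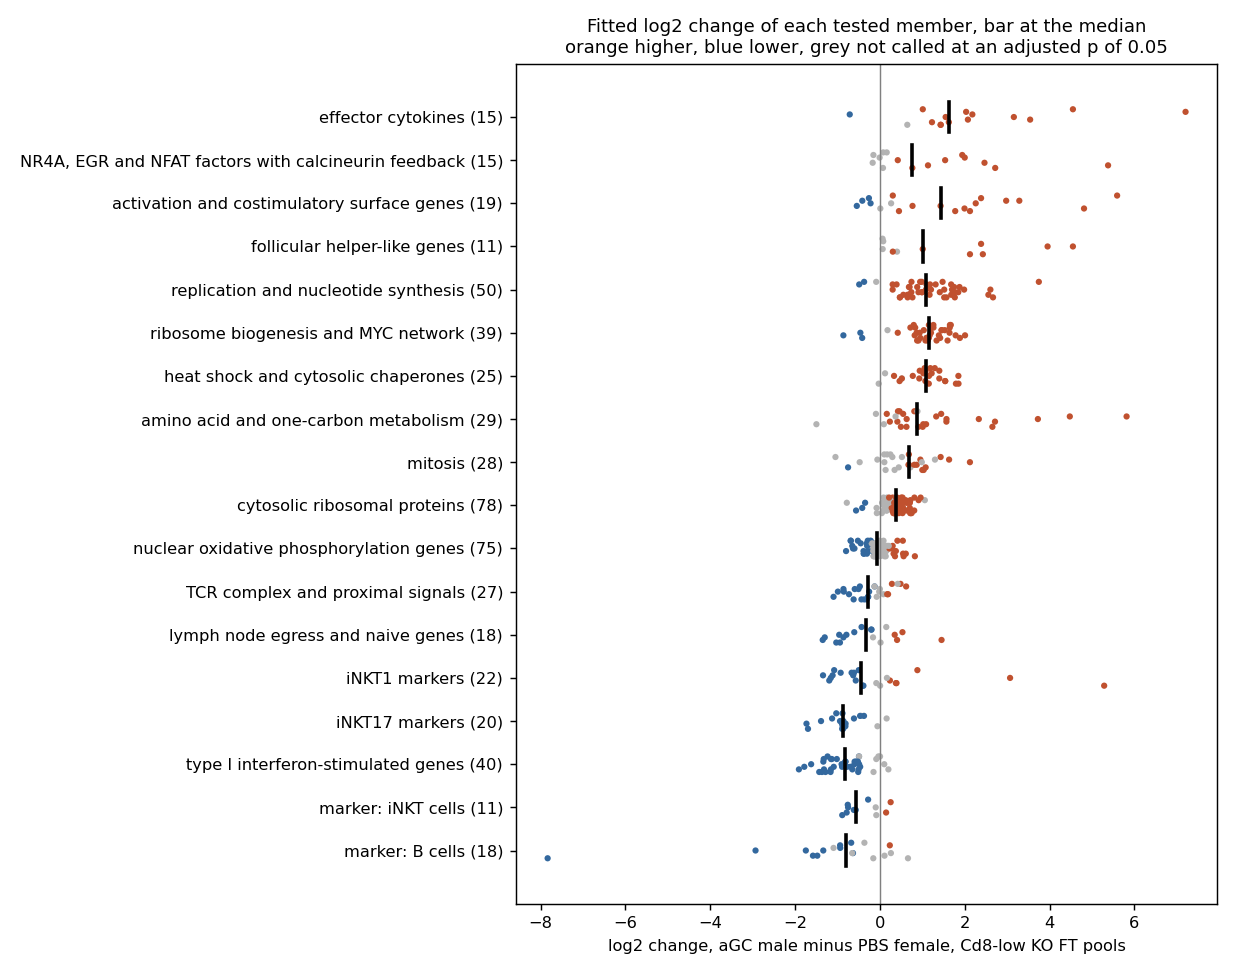
Fitted log2 change between aGC male and PBS female Cd8-low KO FT libraries for each tested member of 18 gene lists (number in brackets), with a bar at the list's median; orange points were called higher, blue lower and grey not called. The lists of cytokines, activation surface genes, follicular helper-like genes, replication, ribosome biogenesis and chaperones have medians above 1. The iNKT17, interferon-stimulated and B cell marker lists have medians below -0.8.

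DNA replication and nucleotide synthesis genes rose almost throughout. Of 50 tested genes 47 rose and 2 fell, with a median log2 change of 1.09, and 39 were higher and 0 lower with 1 profile per group. Mcm5 (ENSMUSG00000005410.6, chromosome 8, 75109569 to 75128439), a subunit of the replicative helicase, read 88.9, 90.7 and 92.2 CPM after PBS against 367, 337 and 372 after aGC, a 3.96-fold rise (log2 change 1.99 ± 0.06, adjusted p = 3.66e-18). Its partners Mcm2, Mcm3 and Mcm6 rose by 1.52 ± 0.05, 1.68 ± 0.05 and 1.14 ± 0.04, and Umps, which makes UMP, by 1.48 ± 0.05.

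Mitosis genes were less uniform, with 12 of 28 higher, 1 lower and 15 not called (3 higher and 0 lower with 1 profile per group). Mki67, a marker of cycling cells, read 3.47, 3.05 and 2.02 CPM after PBS against 6.43, 5.45 and 5.17 after aGC (log2 change 1.00 ± 0.30, adjusted p = 0.00842), a call lost without the third PBS library (adjusted p = 0.0569). The condensin gene Ncapg read 1.79, 1.73 and 1.36 against 6.49, 8.47 and 6.29 (log2 change 2.12 ± 0.24), and the checkpoint kinase gene Bub1b, Cdk1, the cyclin gene Ccnb1 and Cdc20 rose by 1.63 ± 0.19, 1.43 ± 0.23, 0.87 ± 0.17 and 0.68 ± 0.14. Histone genes went the other way, with 15 of 33 tested lower and 3 higher (median -1.08, and 3 and 2 with 1 profile per group). The linker histone gene H1f0 fell (-1.17 ± 0.06), whereas the variant gene H2afz rose by 0.71 ± 0.06. Many histone transcripts were low: 38 of the 71 genes did not pass the filter. With a mean of at least 5 CPM, which tests fewer genes, only 5 were lower and 1 higher.

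Ribosome biogenesis and the MYC network gave 35 rises and 3 falls among 39 (median 1.16; 34 and 1 with 1 profile per group). Ncl, nucleolin, went from 479.9, 469.8 and 451 to 1440.1, 1527 and 1418 CPM (log2 change 1.65 ± 0.04, adjusted p = 4.09e-20), and Myc, the transcription factor that drives these genes, from 183, 181 and 187 to 475, 578 and 609.5 (log2 change 1.59 ± 0.07, adjusted p = 1.97e-14). Odc1, the first enzyme of polyamine synthesis, Npm1, nucleophosmin, Nop2 and Mybbp1a rose by 2.01 ± 0.06, 1.65 ± 0.05, 1.45 ± 0.05 and 1.78 ± 0.06. The MYC antagonist Mxd4 fell (log2 change -0.86 ± 0.09).

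The promoter windows of Nop2 and Mybbp1a are printed as examples, chosen after their values were seen, of members that rose and whose RefSeq window held CACGTG, the E-box letters that MYC and MAX read. The window of Nop2 lies at chr6:125131633-125131932, plus strand, and that of Mybbp1a at chr11:72441077-72441376, plus strand, with the motif in capitals. Of the 35 members that rose 28 had a window and 6 of these (21.4%) held the motif, against 2187 of 27025 genes (8.09%) and 1175 of the 10223 tested genes with a window (11.5%). In the whole list 9 of 32 windows (28.1%) held it, a higher share than in the members that rose. The motif reads the same on both strands, and a match is not evidence of binding.
Nop2: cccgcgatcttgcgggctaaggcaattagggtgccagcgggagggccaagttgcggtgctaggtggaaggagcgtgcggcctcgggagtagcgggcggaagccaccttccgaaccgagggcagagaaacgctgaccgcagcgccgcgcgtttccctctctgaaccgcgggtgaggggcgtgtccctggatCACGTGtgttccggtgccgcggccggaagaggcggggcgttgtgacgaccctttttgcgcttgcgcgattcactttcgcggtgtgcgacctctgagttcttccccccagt
Mybbp1a: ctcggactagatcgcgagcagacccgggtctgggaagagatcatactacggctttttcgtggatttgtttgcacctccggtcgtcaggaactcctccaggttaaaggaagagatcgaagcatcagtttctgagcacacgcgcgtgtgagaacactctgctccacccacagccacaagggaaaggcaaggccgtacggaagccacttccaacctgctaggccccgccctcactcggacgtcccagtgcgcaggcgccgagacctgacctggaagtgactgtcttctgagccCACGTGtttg

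Translation genes rose in number but by less. Of 24 initiation factors 19 rose and 1 fell (median 0.58), among them Eif5a (0.99 ± 0.04). Of 78 cytosolic ribosomal protein genes 52 rose and 3 fell (median 0.38), with Rpl15 at 0.81 ± 0.07 on the log2 scale. Mitochondrial ribosomal protein genes gave 35 rises and 15 falls among 78 (median 0.15). With 1 profile per group the higher calls of these 3 lists were 12, 25 and 8, and the lower ones 1, 0 and 0.

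Nuclear genes of oxidative phosphorylation did not rise as a list, with 13 rises and 21 falls among 75 and a median of -0.06 (4 and 0 with 1 profile per group). Without the third aGC male library the falls numbered 32, and without the second 14. Cytochrome c (Cycs) rose by 0.82 ± 0.07 and the ATP synthase gene Atp5b by 0.61 ± 0.04. Proteasome genes gave 32 rises and 6 falls among 45 (5 and 0 with 1 profile per group): Psma6, Psmd1 and the activator gene Psme3 rose by 0.94 ± 0.04, 0.86 ± 0.06 and 0.93 ± 0.07, and the immunoproteasome genes Psmb9 and Psmb10, which interferons induce, fell (log2 changes -0.62 ± 0.05 and -0.73 ± 0.06).

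Genes of several biosynthetic lists rose. Of 29 amino acid and one-carbon genes 24 rose and none fell (median 0.89; 13 higher and 0 lower with 1 profile per group). Shmt1, which feeds one-carbon units from serine, went from 20.1, 21.0 and 22.7 to 134, 141 and 143 CPM (log2 change 2.71 ± 0.08, adjusted p = 3.21e-18), and Slc7a5, the leucine transporter gene, from 19.8, 20.4 and 19.2 to 132, 112 and 128 (log2 change 2.65 ± 0.12). The mitochondrial enzyme genes Shmt2 and Mthfd1l rose by 1.57 ± 0.07 and 1.44 ± 0.06.

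Glycolysis and lactate export gave 13 rises and 5 falls (3 without the second aGC library) among 23 (8 higher and 0 lower with 1 profile per group). The lactate carrier gene Slc16a1 went from 33.4, 30.5 and 32.0 to 136, 126 and 119 CPM (log2 change 1.99 ± 0.07), and Ldha, Gapdh, Tpi1 and Pgam1 rose by 1.03 ± 0.05, 1.10 ± 0.06, 1.18 ± 0.06 and 1.21 ± 0.08. Sterol synthesis and uptake gave 18 rises and 2 falls among 24, with the regulator gene Srebf2 at 0.93 ± 0.07 and the enzyme genes Cyp51, Sqle, Scd2 and Fdps at 1.16 ± 0.09, 1.10 ± 0.08, 1.07 ± 0.09 and 0.66 ± 0.06. With 1 profile per group 4 sterol genes were higher and 0 lower.

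Cytosolic and mitochondrial chaperones gave 22 rises and no fall among 25 (median 1.08; 17 higher and 0 lower with 1 profile per group). Hsp90ab1 went from 888, 886 and 953 to 2715, 2464 and 2748 CPM (log2 change 1.54 ± 0.04, adjusted p = 4.40e-18), and Hsp90aa1, Hspa8, Stip1 and the mitochondrial Hspa9 rose by 1.85 ± 0.06, 1.40 ± 0.05, 1.08 ± 0.04 and 1.29 ± 0.05. The unfolded protein response of the endoplasmic reticulum was mixed, with 10 rises and 7 falls among 23 (2 and 0 with 1 profile per group): Canx, Calr, Hspa5 and Hyou1 rose by 0.76 ± 0.06, 0.60 ± 0.05, 0.55 ± 0.04 and 1.97 ± 0.18. In the BCL2 family the survival gene Bcl2l1 and the death gene Bcl2l11 rose by 1.20 ± 0.06 and 1.91 ± 0.15 and Mcl1 by 0.58 ± 0.10, while Bcl2 fell from 107, 103 and 100.2 to 61.7, 64.1 and 59.7 CPM (-0.74 ± 0.07) and Bik with a log2 change of -1.19 ± 0.14. 4 of 16 family members rose and 5 fell (2 and 1 with 1 profile per group).

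Type I interferon-stimulated genes were lower in the aGC libraries. Of 40 genes 33 fell and none rose, with a median log2 change of -0.81 (0 higher and 17 lower with 1 profile per group). Ifit3 (ENSMUSG00000074896.3, chromosome 19, 34583531 to 34588731), which encodes an antiviral RNA-binding complex member, read 391, 375 and 394 CPM after PBS against 115, 97.1 and 125 after aGC, a 3.44-fold fall (log2 change -1.78 ± 0.07, adjusted p = 2.36e-15). Ifit1 read 372, 350.0 and 331 against 156, 146 and 132 CPM (log2 change -1.28 ± 0.06), and Usp18, the protease that removes ISG15, 167, 162 and 171 against 67.3, 72.6 and 72.5 (log2 change -1.23 ± 0.05). Xaf1 and Isg15 fell (log2 changes -1.32 ± 0.07 and -0.81 ± 0.11).

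The interferon list was also read in the other groups. Its mean over 40 genes, as log2(CPM + 1), was 6.31 to 6.33 in the PBS female KO FT libraries, above all 7 other groups, and 5.49 to 5.55 in the aGC male ones. PBS male KO FT libraries, which had had no aGC, stood at 5.50 to 5.51, inside the range of the aGC male ones, and PBS female WT FT libraries at 5.72 to 5.77. Ifit3 itself had a mean of 95.4 CPM in PBS male and 31.9 in aGC female KO FT libraries. Interferon-inducible GTPases, many of them targets of interferon gamma, gave 10 falls and 1 rise among 16 (3 and 0 with 1 profile per group), with Gbp8, Tgtp2, Gbp6 and Gbp7 at -0.95 ± 0.05, -0.97 ± 0.06, -0.74 ± 0.06 and -0.53 ± 0.04. This direction was not shared by the Cd8-high KO FT pools (aGC females against PBS males), where 10 of the 16 rose and 1 fell (median 0.35). In the Cd8-low WT FT pools 4 rose and 10 fell (median -0.30).

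The promoter windows of Ifit1, Ifit3 and Isg15 are printed since all 3 genes fell and each window holds the ISRE-type letters, GAAA, any 2 bases and GAAA, more than once, searched on both strands. The windows lie at chr19:34640639-34640938, plus strand, at chr19:34583279-34583578, plus strand and at chr4:156200769-156201068, minus strand, and capitals mark the matches, 2 in Ifit1, 2 in Ifit3 and 3 overlapping ones in Isg15. In Ifit1 and Ifit3 the letters are those of the other strand. Of the 33 members that fell 22 had a window, and 10 of these (45.5%) held the motif, as did 15 of the 29 windows of the whole list (51.7%) and 1079 of 27025 genes (3.99%). The share in the members that fell was thus no higher than in the list.
Ifit1: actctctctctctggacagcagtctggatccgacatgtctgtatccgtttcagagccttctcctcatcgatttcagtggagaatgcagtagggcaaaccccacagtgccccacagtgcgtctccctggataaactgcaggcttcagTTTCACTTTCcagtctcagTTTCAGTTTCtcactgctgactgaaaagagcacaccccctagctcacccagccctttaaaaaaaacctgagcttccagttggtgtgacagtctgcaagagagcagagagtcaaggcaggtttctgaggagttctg
Ifit3: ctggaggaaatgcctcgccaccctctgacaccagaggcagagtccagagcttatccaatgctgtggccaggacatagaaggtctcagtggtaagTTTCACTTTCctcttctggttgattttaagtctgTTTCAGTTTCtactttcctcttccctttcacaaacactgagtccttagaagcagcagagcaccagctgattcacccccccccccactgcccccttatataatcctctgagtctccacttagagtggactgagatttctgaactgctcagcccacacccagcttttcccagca
Isg15: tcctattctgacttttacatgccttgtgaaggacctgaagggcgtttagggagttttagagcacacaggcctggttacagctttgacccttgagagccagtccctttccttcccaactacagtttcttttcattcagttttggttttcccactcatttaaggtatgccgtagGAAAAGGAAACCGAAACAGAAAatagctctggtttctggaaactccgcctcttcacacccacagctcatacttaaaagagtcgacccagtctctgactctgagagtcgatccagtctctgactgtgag

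**Figure D4:**
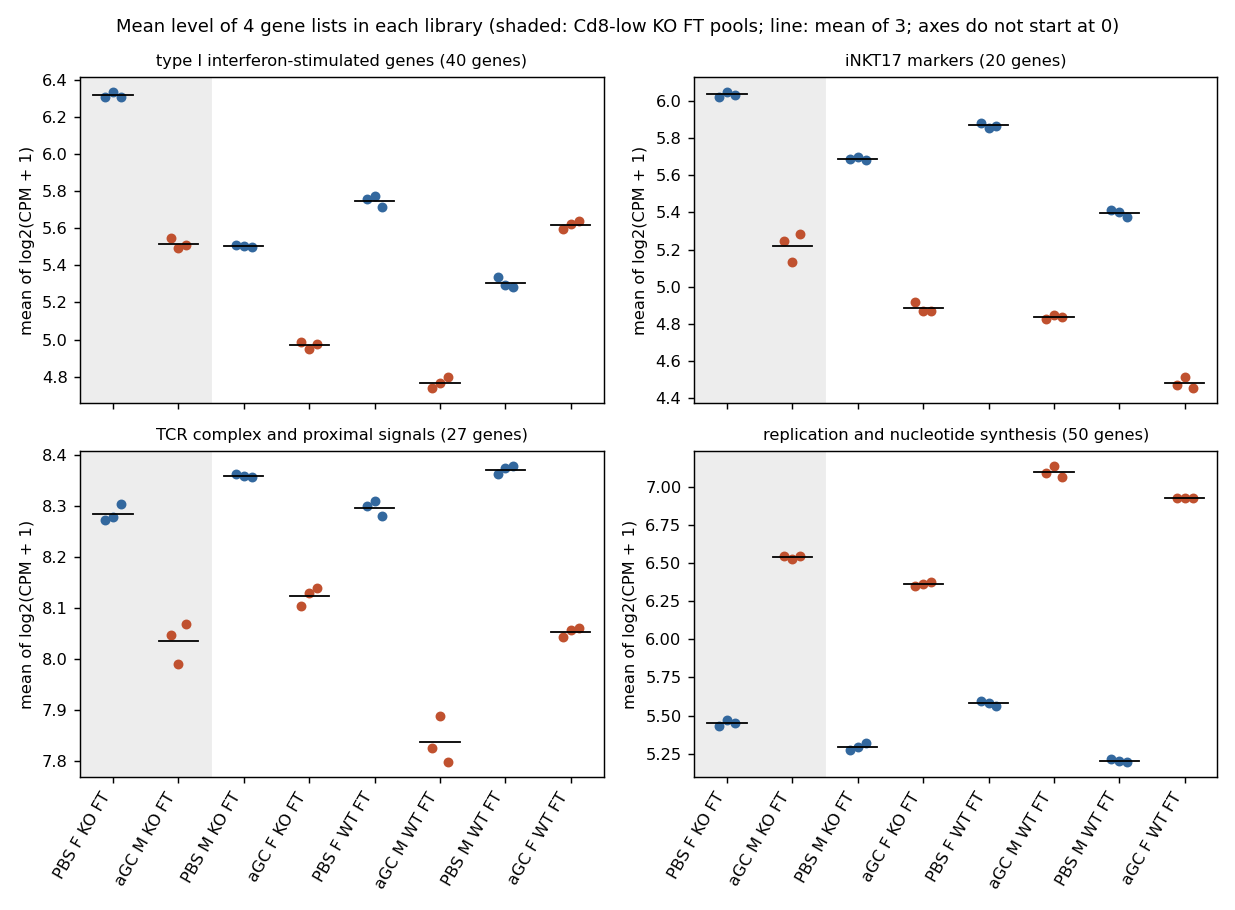
Mean of log2(CPM + 1) over the members of 4 gene lists in each of the 24 libraries, blue for PBS and orange for aGC, with the Cd8-low KO FT libraries shaded and a line at each group's mean. The interferon-stimulated mean is highest in the PBS female KO FT libraries, the replication mean is higher in every aGC group than in any PBS group, and the iNKT17 mean is lower in every aGC group than in any PBS group.

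The largest falls with at least 5 CPM were led by genes outside the lists. Irf2bp2 (ENSMUSG00000051495.7, chromosome 8, 126588296 to 126593986), a transcriptional co-repressor, read 219.7, 208 and 202 CPM after PBS against 41.2, 46.3 and 46.5 after aGC (log2 change -2.23 ± 0.09, adjusted p = 6.67e-16). Its means were 41.7 in PBS male and 37.9 in aGC female KO FT libraries, and 43.2 and 59.3 in the Cd8-low WT FT groups. Of the groups given here, only the PBS female KO FT group stood high. Ranbp9, a scaffold of a ubiquitin ligase, fell from 88.7, 82.1 and 70.8 to 17.7, 19.1 and 13.9 CPM (log2 change -2.26 ± 0.13), with 19.7 and 11.7 CPM in the other KO FT groups.

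The ubiquitin ligase gene Znrf2 went from 133, 150.0 and 120.4 to 26.2, 23.8 and 21.6 CPM (log2 change -2.50 ± 0.09), and Egln1, the oxygen-sensing prolyl hydroxylase that marks HIF for decay, from 113, 118 and 109 to 24.0, 27.5 and 25.9 (log2 change -2.14 ± 0.08). In the Cd8-low WT FT groups both genes fell less, from means of 113 to 80.8 CPM for Znrf2 and of 89.9 to 76.8 for Egln1. The unnamed transcript Gm4316 fell from 53.0, 53.5 and 46.3 to 5.49, 5.45 and 6.89 CPM (-3.08 ± 0.11), and Gm26920 had 283 counts after PBS, most of them in the first library, and 0 after aGC, at least 83.0-fold lower. Among lower transcripts the AMP deaminase gene Ampd1 had a log2 change of -3.51 ± 0.25, Nebl of -2.45 ± 0.36, the receptor tyrosine kinase gene Ret of -2.25 ± 0.26, the potassium channel gene Kcnh3 of -2.18 ± 0.37, Gm33104 of -2.12 ± 0.16 and Fam20a of -2.12 ± 0.39, all 6 called.

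The response was next set beside that of the Cd8-low WT FT pools (aGC males against PBS females), which shares no library with it and has the same sex on each side. Treatment and sex differ together in both, so what they share cannot separate a part of sex from the part of aGC. Over 8259 genes with a mean above 10 CPM in the 8 groups, the 2 sets of log2 changes had a Pearson r of 0.677 and a Spearman rho of 0.627, a description across genes, which are not independent replicates. Of the 3957 genes higher here 2399 (60.6%) were also called higher there, which is 55.1% of the 4352 (28.1% of tested genes) higher there, and 519 were called lower. Of the 3779 genes lower here 2419 (64.0%) were also lower there, 48.7% of the 4967 (32.1%), and 347 were higher.

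**Figure D5:**
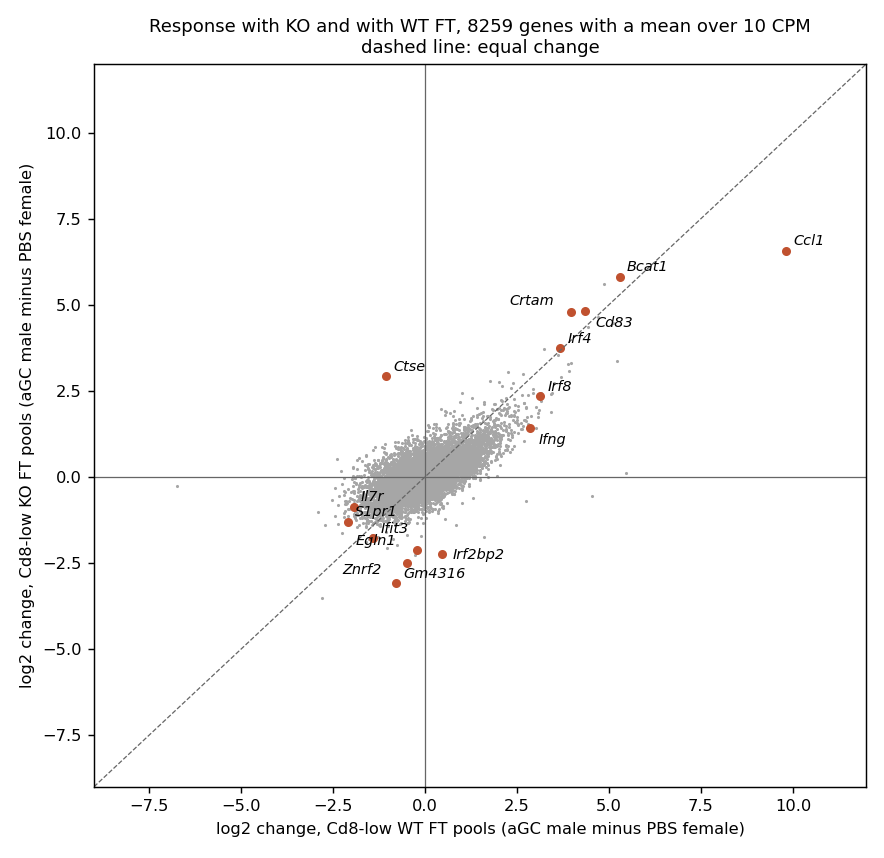
Log2 change between aGC male and PBS female libraries in the Cd8-low KO FT pools (vertical) against the same change in the Cd8-low WT FT pools (horizontal) for 8259 genes with a mean over 10 CPM, with named genes in orange and a dashed line at equal change. Cd83, Bcat1 and Irf4 lie near the line, Ccl1 and Ifng below it, Ctse rises with KO FT and falls with WT FT, and Irf2bp2, Znrf2 and Egln1 lie far below the line.

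The test of the difference between the 2 responses called 6728 genes (43.5%), 3535 with a higher change under KO FT (22.9%) and 3193 with a lower one (20.6%). Ifng rose from 18.4 to 133 CPM with WT FT, and its KO FT change minus its WT FT change was -1.42 ± 0.12 on the log2 scale (adjusted p = 6.87e-09). For Il4, with 56.7 and 182 CPM there, the difference was -0.45 ± 0.12 (adjusted p = 0.00343), and for Ccl1, with 0.319 and 375 CPM, it was -3.23 ± 0.40 (adjusted p = 7.68e-07). Gzmb, granzyme B, moved in opposite directions, from 10.4, 10.6 and 8.75 to 6.83, 6.26 and 6.33 CPM here and from a mean of 6.53 to 26.2 there, a difference of -2.61 ± 0.25 (adjusted p = 2.56e-08). Hexokinase 2 (Hk2) rose from a mean of 1.66 to 9.21 CPM here and from 0.551 to 23.8 there, a difference of -2.79 ± 0.50 (adjusted p = 8.57e-05). Gzmb and Hk2 were singled out after their values were seen.

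In the other direction, Il7r and S1pr1 fell less with KO FT, by differences of 1.08 ± 0.12 and 0.80 ± 0.09 (adjusted p = 1.74e-07 and 1.46e-07), from PBS female WT FT means of 545 and 104 to aGC male means of 142 and 24.4 CPM. Ctse (ENSMUSG00000004552.16, chromosome 1, 131638306 to 131675505), the endosomal protease cathepsin E, read 32.7, 33.6 and 36.1 CPM after PBS against 275, 235 and 269 after aGC here (log2 change 2.93 ± 0.08, adjusted p = 1.13e-18), and 23.6 and 11.2 CPM there, a difference of 3.99 ± 0.12 (adjusted p = 8.40e-17). Lif reached 23.6 CPM there from a PBS mean of 2.88, against 19.2 from 0.126 here, a difference of 4.18 ± 0.46 (adjusted p = 1.73e-07). Zbtb16 fell with WT FT, from 60.7 to 40.1 CPM, a difference of 0.85 ± 0.12 (adjusted p = 5.58e-06).

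Tbx21, Bcl6 and Mki67 had differences of -0.14 ± 0.07, -0.44 ± 0.30 and -0.25 ± 0.43 that did not pass (adjusted p = 0.118, 0.258 and 0.665). The difference of Tbx21 was called with RLE size factors (adjusted p = 0.0437) and with DESeq2 (adjusted p = 0.028). That of Ifit3 was -0.38 ± 0.11 (adjusted p = 0.00539). Irf2bp2, Znrf2 and Egln1 had differences of -2.69 ± 0.12, -2.01 ± 0.12 and -1.91 ± 0.11. The opioid precursor gene Penk, read at 44.7 CPM in aGC male WT FT libraries and at 9.59 in aGC female KO FT libraries, was at 0.263, 0.332 and 0.0880 CPM after PBS against 0.0669, 0 and 0.0932 after aGC here.

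Several growth lists had lower changes in the Cd8-low KO FT pools than in the Cd8-low WT FT pools. Of 39 ribosome biogenesis genes 30 had a lower change and 5 a higher one than with WT FT (median difference -0.60), and of 50 replication genes 30 and 1 (median -0.43). For oxidative phosphorylation 70 of 75 had a lower change and none a higher one (median -0.75), and for cytosolic ribosomal proteins 75 of 78 and none (median -0.86). Sterol genes were even, with 7 higher and 5 lower differences among 24 (median 0.11), and of 28 mitosis genes 2 had a higher and 4 a lower change. Transcript length moved with this difference: its median was -0.31 among the genes of shortest exonic length and 0.23 among the longest, when genes were divided into 3 length classes, with a Spearman rho of 0.372 over 8257 genes, against 0.139 for the response itself. The part of length in the list differences was not tested.

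The other KO FT pools, aGC females against PBS males, stand above the Cd8a limit, reverse the sexes and share no library with the 6. Over the same 8259 genes their log2 changes had a Pearson r of 0.731 and a Spearman rho of 0.679 with the response described here. Of the genes higher here 2365 (59.8%) were also higher there, 60.4% of the 3918 (25.3% of tested genes), and 358 were lower. Of those lower here 2156 (57.1%) were lower there, 50.5% of the 4272 (27.6%), and 275 were higher. In all 12 KO FT libraries together, every aGC library lay above every PBS library in 1903 of the genes called higher here (48.1%). Every aGC library lay below every PBS library in 1547 of those called lower here (40.9%). These genes were called by comparing 6 of the 12 libraries. Within those 6, 3672 of the higher and 3569 of the lower genes already had no overlap. The share among all tested genes was not computed, so these percentages have no background.

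The test of the difference between these 2 responses called 5096 genes (32.9%), 2600 higher in the Cd8-low pools (16.8%) and 2496 lower (16.1%). The Cd8-high pools were set apart by Cd8a itself, and the part of CD8 T cells in these differences was not tested. Eomes and Crtam rose more in the Cd8-low pools, by 2.36 ± 0.19 and 3.26 ± 0.19 (adjusted p = 7.20e-09 and 4.82e-11), from PBS male means of 9.52 and 17.9 to aGC female means of 38.4 and 51.6 CPM in the Cd8-high ones. Irf4 rose more by 1.12 ± 0.13 and Lif by 4.48 ± 0.47 (adjusted p = 1.51e-06 and 3.13e-07), the latter from a level near the floor in the PBS female KO FT libraries. In the Cd8-high pools Gzmb rose from 1.37 to 12.3 CPM and Ccl4 from 3.21 to 106, which gave differences of -3.80 ± 0.28 and -1.88 ± 0.20 (adjusted p = 2.27e-09 and 3.96e-07).

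Ifng had a lower change in the Cd8-low pools, with a difference of -1.30 ± 0.13 (adjusted p = 1.53e-07), with 12.8 and 85.0 CPM in the Cd8-high ones, while Il4 differed by -0.14 ± 0.12 (adjusted p = 0.408). Zbtb16 and Ctse fell in the Cd8-high pools, from 80.2 to 34.1 and from 45.6 to 20.2 CPM, and their differences were 1.48 ± 0.12 and 4.10 ± 0.11 (adjusted p = 1.37e-08 and 2.17e-17). S1pr1 and Irf2bp2 differed by -0.88 ± 0.08 and -2.10 ± 0.12, Tbx21 by -0.76 ± 0.07, Bcl6 by -0.90 ± 0.30 and Mki67 by 1.26 ± 0.46 (adjusted p = 6.70e-08, 4.82e-11, 5.63e-08, 0.0253 and 0.0365). Those of Bcl6 and Mki67 were not stable, and were lost in 5 and 6 of the 12 fits that left out 1 library. The difference of Ifit3 was -0.21 ± 0.11 and did not pass (adjusted p = 0.142), but did without the third aGC male library (adjusted p = 0.0315). Replication genes were even, with 9 higher and 12 lower differences among 50 (median -0.02), whereas 13 of 22 iNKT1 markers had a lower change in the Cd8-low pools and 1 a higher one (median -0.80). Oxidative phosphorylation genes had 50 lower and 0 higher differences among 75 (median -0.38), and in the Cd8-high pools 49 of them rose and 4 fell. Proteasome genes had 30 lower and 0 higher among 45, mitochondrial ribosomal protein genes 39 and 2 among 78, and cytosolic ones 2 and 2 among 78. Interferon-inducible GTPases had 14 lower and 0 higher differences among 16 (median -0.82). The response difference also moved with transcript length (Spearman rho 0.264 over 8257 genes), whose part was not tested.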

How the data were processed

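RNA of sorted iNKT cells was sequenced in 24 libraries, 3 in each of 8 groups. Per the labels, libraries were made with a single-cell RNA purification kit and Nextera XT, which does not mark strand, so antisense and overlapping genes cannot be separated. Per the submitters' processing notes, kallisto and the build GRCm38/mm10 were used, with no version or annotation release stated in the labels. The values deposited by the authors are estimated counts per gene for 55335 genes, which were rounded to whole numbers here. 181 identifiers had no match in GENCODE M21, from which positions were taken.

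One model over all 24 libraries, with 8 group means, was fitted with edgeR 4.0.16 (quasi-likelihood test, TMM scaling) in R 4.3.3 on 15953 genes kept by filterByExpr (minimum count 10, minimum total 15). P-values were adjusted by Benjamini-Hochberg over the 15469 genes outside X and Y (484 left out), with a two-sided threshold of 0.05. Levels are TMM-scaled CPM, errors beside log2 changes are SE, and adjusted p-values are from this test. Total counts ranged from 9764931 to 37016768, and the script was tested on simulated data. DESeq2 1.42.0 and other settings were tried as alternatives.

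Genes named for the response were the 12 largest rises and falls with at least 5 CPM in a compared group and a fixed short list. Up to 5 of lowest p and 2 not passing per list, with some further list members, were added. Of the 8 largest rises and falls of each difference of responses only some are named. Those left out include Dok4 and Ndnf against WT FT, and Cd14, Igha and Iglc2 against the Cd8-high KO FT pools. Apart from Gzmb and Hk2, the other genes given for the differences were on the fixed list or named for the response. Members and lists were chosen with earlier results of these data known. The labels number the libraries 1 to 3 in each group. Deviations from the group mean in same-numbered libraries of the 2 compared groups had correlations of 0.346, 0.192 and 0.459 over 8490 genes. Differently numbered libraries were not compared, so whether the numbers pair the libraries was not tested. The main fit had no block for the number, and a fit with that block was run as an alternative.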

Additional observations from a re-analysis of the deposited data

Results flagged for a closer look

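The response in the Cd8-low KO FT pools differed from that in the Cd8-low WT FT pools in 6728 genes by the test of the difference of responses (edgeR). The difference (KO FT minus WT FT, log2) was 4.18 for Lif, 3.99 for Ctse, 1.08 for Il7r, 0.85 for Zbtb16 and 0.80 for S1pr1. It was -3.23 for Ccl1, -2.79 for Hk2, -2.69 for Irf2bp2, -2.61 for Gzmb, -2.01 for Znrf2, -1.91 for Egln1, -1.42 for Ifng, -0.45 for Il4 and -0.38 for Ifit3. The difference of Lif rests on a PBS level near the floor with KO FT. After aGC its mean was lower with KO FT than with WT FT, as given above.

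The response differed from that of the Cd8-high KO FT pools in 5096 genes by the same test. The difference (Cd8-low minus Cd8-high, log2) was 4.48 for Lif, 4.10 for Ctse, 3.26 for Crtam, 2.36 for Eomes, 1.48 for Zbtb16, 1.26 for Mki67 and 1.12 for Irf4. It was -3.80 for Gzmb, -2.10 for Irf2bp2, -1.88 for Ccl4, -1.30 for Ifng, -0.90 for Bcl6, -0.88 for S1pr1 and -0.76 for Tbx21. Those of Mki67 and Bcl6 were not stable, as they were lost in 6 and 5 of the 12 fits that left out 1 library. That of Lif rests on a level near the floor in the PBS female KO FT libraries. Single libraries were left out in turn, but none was tested for being an outlier.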

How the results depend on the processing

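The count of genes called was 7736 for the response, 6728 for its difference from the Cd8-low WT FT pools and 5096 for that from the Cd8-high KO FT pools, and stayed within 1.5 times under other scalings, other filters, DESeq2, X and Y kept, only the compared groups, and single libraries left out (6976 to 7362, 6219 to 6658 and 4504 to 5043). With the replicate block the counts were 7617, 6603 and 4924, and no named gene changed its call. Asking for a log2 change of at least 1 left 2337, 2461 and 1840 genes. The fit with 1 profile per group has an aGC term averaged over KO FT and WT FT, another quantity than the KO FT response. It had 1459 calls, of which 1440 were among the 7736, and 3633 genes at an unadjusted p under 0.05, with a biological coefficient of variation of 0.332 (0.108 in the fit of 24 libraries). Of 187 genes named for the response 142 had the same direction and call in this average, 43 the same direction and no call, and 2 the other direction, which does not separate a differing WT FT change from a larger error.

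The log2 change of Gata3, which was not called, was 0.01 and turned to -0.013 under upper quartile scaling and to -0.042 with all genes with a count. With single libraries left out it ran from -0.13 (without the second aGC library) to 0.11, and was -0.014 without the second PBS library. In the average over KO FT and WT FT with 1 profile per group Gata3 had -0.11 and Zbtb16 -0.15, where Zbtb16 rose with KO FT and fell with WT FT. Rises of effector cytokines went from 13 to 8 with a mean of at least 5 CPM, which tests fewer genes. Rises of mitochondrial ribosomal proteins went from 35 to 21 with all genes with a count, and falls in the unfolded protein response list from 7 to 4 in the compared groups alone; the cause was not tested. Differences of genes with few counts in a group, such as Il10 and Il17f, are limited by depth.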
